A study of Mus musculus with 12 samples.

Results

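Dividing CD8 T cells of the inflamed pancreatic islets were taken as the islet cells with at least 1 UMI (unique molecular identifier, which stands for 1 captured RNA molecule) of Mki67 and at least 1 UMI of Top2a. The rule was met by 643 of the 18163 islet cells that passed the filters of less than 5% mitochondrial UMIs and 200 to 3500 genes, and the whole series held 24117 filtered cells, with an upper limit of 2000 genes in the spleen. The mice were untreated female NOD/ShiLtJ (NOD) mice, a strain with spontaneous autoimmune diabetes, which were prediabetic and 10 to 15 wk old. In each of 2 experiments, Rounds 1 and 2, the islets of 10 mice were pooled, and CD45.1+ CD8+ cells without the lineage markers CD4, B220 and CD11b were sorted into those that bound an MHC class I Kd tetramer with the mimotope NRP-V7 and those that did not. The tetramer stains T cells that recognise the β-cell protein IGRP. Each sort of each round gave a single 10x 5′ scRNA-seq library and a scTCR-seq library of the same cells. There were thus 2 tetramer-negative and 2 tetramer-positive islet libraries. The mouse behind a cell is unknown, and p-values measure the spread between libraries. Both sorts of a round came from the same pool of 10 mice, so the 4 libraries are not independent samples of mice. Tests of members against other cells treat them as separate all the same. Where 4 values follow each other, they stand for tetramer-negative Round 1, tetramer-negative Round 2, tetramer-positive Round 1 and tetramer-positive Round 2, in this order.

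Mki67 encodes Ki-67, a coat protein of mitotic chromosomes that is made in cycling cells and degraded in resting ones, and Top2a encodes DNA topoisomerase II alpha, which untangles replicated DNA. Both genes are transcribed mainly from S phase to mitosis, together with Ube2c, the ubiquitin-conjugating enzyme of the anaphase-promoting complex (APC/C), and Ccnb2, the mitotic cyclin B2. In resting cells the MuvB complex holds such genes silent through promoter elements called CHR, and B-Myb and FoxM1 switch them on through the same elements. The promoters of such genes often hold CCAAT boxes as well. E2F factors, in contrast, drive the genes of DNA replication. Antigen-stimulated CD8 T cells leave quiescence, which is maintained by factors such as Klf2, Tcf7 and the IL-7 receptor, and go through rounds of division that build up clones carrying one T-cell receptor.

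The members carried the transcripts of CD8 T cells. A CD3 UMI was found in 100% of the members of each library and a CD8 UMI in 100%, 98.6%, 100% and 100%. Over 6 CD8 T-cell genes the members held 4449, 4815, 4738 and 4845 CPM (UMIs of the genes per 1000000 UMIs), against 4389, 4168, 5737 and 5540 CPM in the other cells. Cd4, the NK-cell genes Ncr1 and Klrb1c, and the B-cell genes Ms4a1 and Cd79a had no UMI in any member, and 4 of 9 myeloid genes (Csf1r, C1qb, C1qc and Adgre1) had none either. All 3 NK-cell genes together held 0.814, 0.539, 0.998 and 0 CPM in members and 0.187, 0.104, 0.410 and 0 CPM in other cells. The 3 CD4 T-cell genes held 0.407, 0, 0 and 2.90 CPM against 1.69, 2.15, 0.205 and 0.686 CPM. For 5 B-cell and plasma-cell genes the sums were 3.25, 4.31, 2.00 and 1.45 CPM against 5.02, 5.18, 2.46 and 3.98 CPM. For 3 gamma-delta T-cell genes they were 6.92, 1.08, 2.99 and 2.90 CPM against 3.63, 2.82, 2.87 and 2.74 CPM. All 9 myeloid genes together held 162, 207, 183 and 202 CPM in members and 171, 180.4, 206 and 229 CPM in other cells, so members and other cells overlapped. Transcripts of exocrine pancreas, which T cells do not make, were less abundant in members, with 81.8, 292, 19.96 and 27.6 CPM over 12 genes against 148, 486, 70.9 and 190.2 CPM in other cells, from which exocrine cells were not removed. Between pairs of islet libraries 110 cell barcodes were shared, 64 of them between the tetramer-negative libraries, and 6 of the 110 belonged to a member. The rounds differed within a sort, for example in the median mitochondrial share of the members, which was 2.67%, 1.60%, 1.78% and 1.01%, so the libraries of a round are set side by side below.

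The 4 marker genes were strongly raised in each library. Mki67, which the rule used, stood at 422, 487, 276 and 373 CPM in the members and at 9.51, 10.2, 17.8 and 19.7 CPM in the other cells, and Top2a, also used by the rule, at 426, 464, 406 and 422 CPM and 17.0, 17.0, 35.9 and 24.3 CPM. Ube2c, which the rule did not use, reached 478, 266, 542 and 335 CPM in members and 13.5, 14.7, 54.5 and 33.6 CPM in other cells. Ccnb2 reached 137, 128, 118 and 123 CPM against 6.22, 7.28, 27.9 and 24.4 CPM. For Mki67 and Top2a the rule itself separates members from other cells. For Ube2c and Ccnb2, the markers it did not use, the summed library values of members and other cells did not overlap either. Single cells did overlap, since members without a UMI and other cells with a UMI were found for both Ube2c and Ccnb2. Because these 2 genes belong to the transcription programme that the rule selects, their levels and those of the other genes of the S phase and G2/M phase lists are a description, and no test of members against other cells is given for them.

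How much of this programme each step of the rule captured is shown by cells just inside and just outside it. Cells without either gene made up 87.3%, 88.5%, 75.9% and 80.8% of the libraries and held only 9.87, 9.50, 24.0 and 27.9 CPM of Ube2c. Cells with Top2a alone (368, 545, 126 and 135 cells) held 16.3, 32.8, 109 and 21.7 CPM, and cells with Mki67 alone (192, 268, 63 and 94 cells) 73.5, 83.0, 222 and 94.0 CPM. Mki67 alone thus marked more Ube2c than Top2a alone in every library. Members with exactly 1 UMI of each gene (36, 37, 9 and 14 cells) held 153, 66.9, 138 and 84.6 CPM of Ube2c, which in tetramer-negative Round 2 and both tetramer-positive libraries was below the level of cells with Mki67 alone. Members with at least 2 UMIs of each (168, 123, 54 and 48 cells) held 539.7, 328, 577 and 399 CPM. Ccnb2 followed the same order more loosely, with 3.73, 3.22, 10.3 and 14.5 CPM in cells without either gene, 61.3, 106, 125 and 103 CPM in members with 1 UMI of each, and 148, 129, 135 and 115 CPM in members with 2 or more. At the edge of the rule, cells just inside and just outside thus overlapped in Ube2c, whereas members with 2 or more UMIs of each gene had the highest level in each library, close to that of members with 1 UMI of one gene and more of the other (482, 229, 576 and 323 CPM). The summed S phase list was higher with 1 UMI of each (3219, 3171, 5197 and 4972 CPM) than with Mki67 alone (2152, 2201, 3597 and 2869 CPM). The summed G2/M list without Mki67 and Top2a went the same way in each library.

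**Figure D1:**
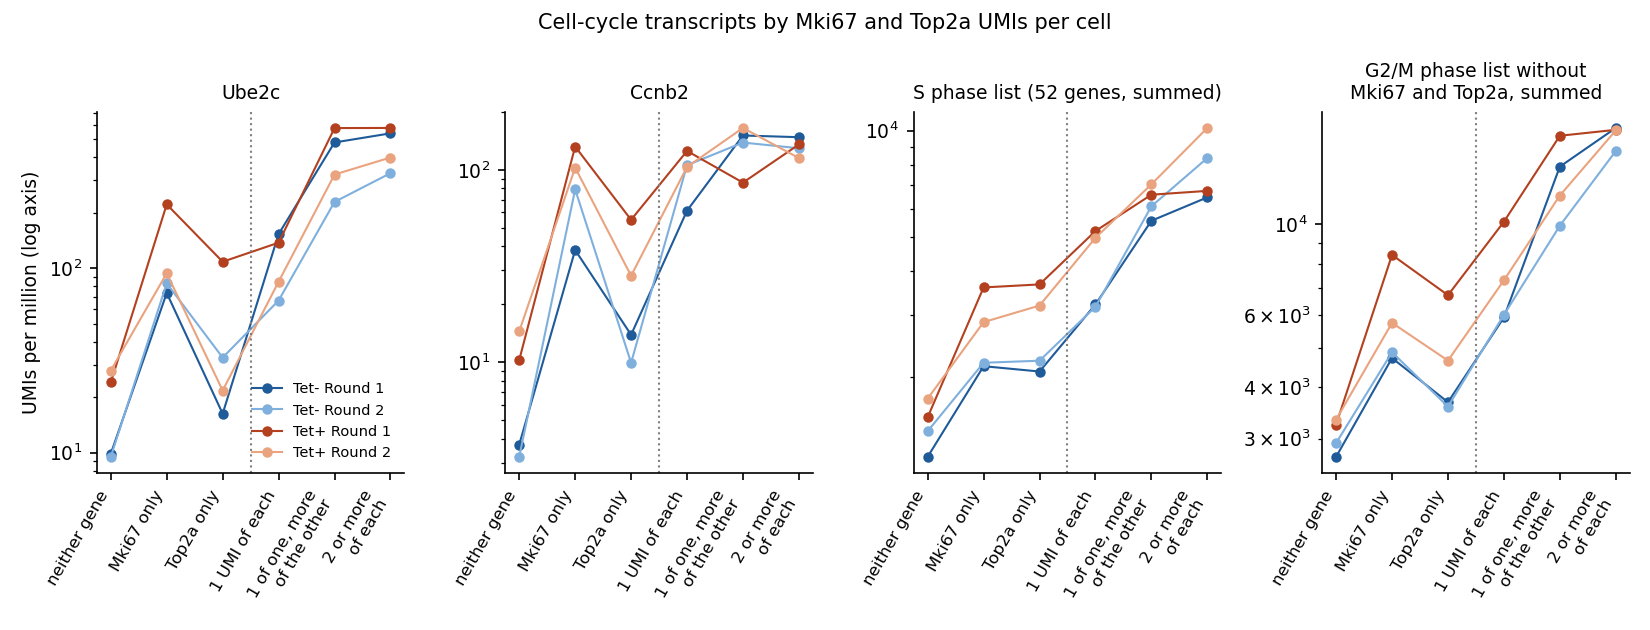
CPM of cell-cycle transcripts (log axes) in cells grouped by their UMIs of Mki67 and Top2a, 1 line per islet library, with a dotted line at the edge of the rule. Ube2c rises from 9.50 to 27.9 CPM in cells without either gene to 328 to 577 CPM in cells with 2 or more UMIs of each. In Ube2c, cells with 1 UMI of each (66.9 to 153 CPM) overlap those with Mki67 alone (73.5 to 222 CPM). In the sums of both phase lists they lie above those with Mki67 alone in each library.

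Members held more RNA than other cells. Their median UMI count was 9784.5, 9301, 9997 and 8758.5, against 3733, 3829, 3589 and 4016 in the other cells, and they expressed a median of 2840, 2996, 2769 and 2868 genes, against 1385, 1565.5, 1394 and 1695.5. The members were 2.35% to 8.39% of the cells and held 8.43%, 4.58%, 17.0% and 8.64% of the UMIs. A cell with more UMIs is more likely to show 1 UMI of each gene, and larger cells are also typical of S phase and G2, and these cannot be told apart here. Comparisons of genes were therefore repeated with other cells drawn to the same UMI depths.

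The upper limit of 3500 genes also removed many cells that met the rule. Among 935 islet cells over the limit, 580 met the rule on Mki67 and Top2a, so that 1223 cells met it when no limit was set. In the 4 libraries, 178 of 260 cells over the limit (68.5%), 273 of 478 (57.1%), 43 of 52 (82.7%) and 86 of 145 (59.3%) had both genes, and these cells held a median of 18465, 16076, 19919 and 17252 UMIs. Within the limit, 39.0%, 49.5%, 30.7% and 37.2% of members already had more than 3000 genes, against 2.12%, 3.51%, 2.45% and 5.59% of the other cells. Cells with 2 productive β chains, a sign of doublets, made up 7.30%, 3.297%, 2.33% and 6.98% of the cells over the limit that met the rule, and 3.15%, 3.33%, 4.95% and 1.28% of the members. How many of the 580 cells are doublets was not tested.

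Within single members, transcripts of S phase and of G2/M phase were found side by side. Genes of the S phase list (52 genes of DNA replication and repair) took a median of 0.611%, 0.707%, 0.702% and 0.947% of a member's UMIs and 0.108%, 0.130%, 0.138% and 0.161% of an other cell's UMIs. Genes of the G2/M phase list (63 genes of mitosis), counted without Mki67 and Top2a, took 1.60%, 1.19%, 1.63% and 1.39%, against 0.256%, 0.279%, 0.295% and 0.298%. The G2/M share was larger than the S share in members of each library, and the ratio of the pooled shares was 2.56, 1.77, 2.47 and 1.64. In other cells the same ratio was 2.21, 2.03, 2.07 and 1.85. Members thus lay above the other cells of their library in Round 1 and below them in Round 2. In both states the ratio was higher in both Round 1 libraries than in both Round 2 libraries, whereas the 2 sorts overlapped. Members with a UMI of a late gene (Ccnb1, Ccnb2, Cdc20, Plk1 or Ube2c) and a UMI of an early gene (Ccne1, Ccne2, Cdc6, Mcm10 or Cdt1) formed the most frequent class, with 61.4%, 55.2%, 60.4% and 46.2%. Late genes alone were seen in 18.5%, 16.7%, 23.8% and 19.2% of members and early genes alone in 11.02%, 12.9%, 11.9% and 21.8%. The 9.06%, 15.2%, 3.96% and 12.8% with neither had fewer UMIs than the members as a whole, with medians of 7784, 6299, 4595.5 and 6628.5. The classes thus moved with depth, and no phase was called for single cells.

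**Figure D2:**
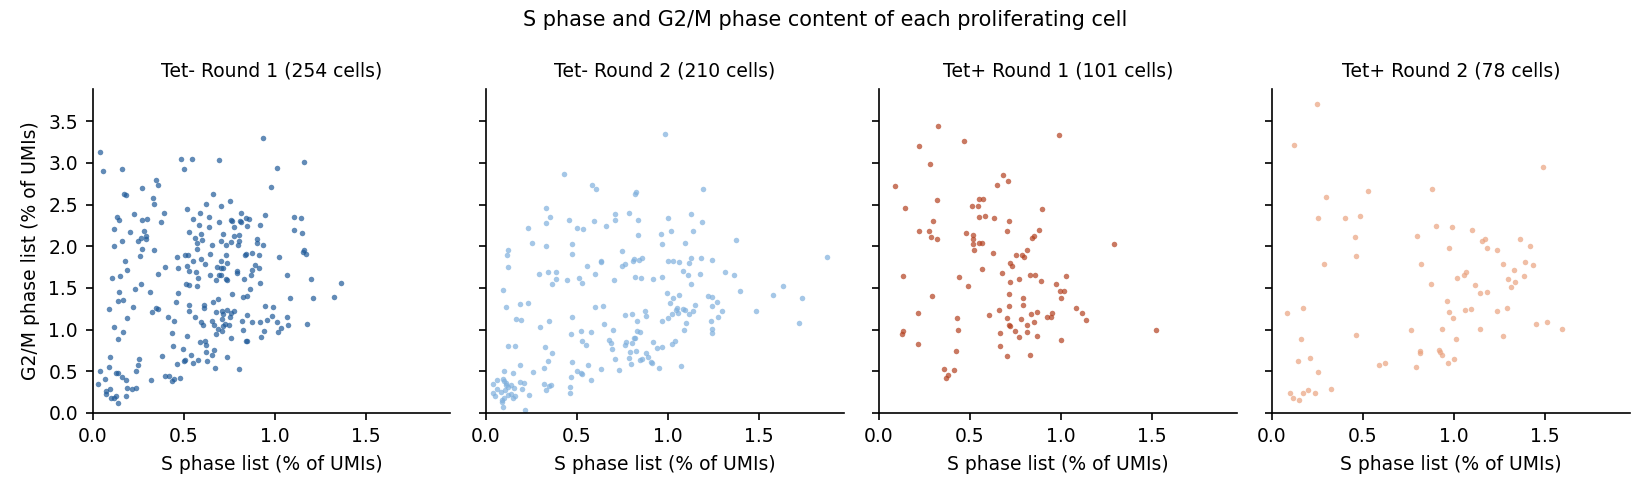
Each point is 1 member, with the percent of its UMIs from the S phase list on the x axis, in 1 panel per islet library. The y axis gives the percent from the G2/M phase list without Mki67 and Top2a. The cells form a continuous cloud in each library, with medians of 0.611% to 0.947% on the x axis and 1.19% to 1.63% on the y axis.

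The genes of the 2 phase lists were higher in members almost without exception, which describes the selection. The median log2 difference between members and other cells was 2.65 over the 52 S phase genes and 3.66 over the 61 G2/M genes tested, beside -0.04 over all 9619 genes tested. Mki67 and Top2a were not tested. Ccna2, the S and G2 cyclin A2, stood at 275, 224, 264 and 238 CPM against 2.58, 2.85, 14.6 and 6.86 CPM, and Cdk1, the mitotic kinase, at 88.7, 108, 113 and 162 CPM against 2.58, 3.19, 7.38 and 4.25 CPM. Among replication genes, the helicase subunit gene Mcm5 stood at 146, 229, 149 and 274 CPM against 17.2, 27.1, 39.1 and 45.0 CPM and the sliding clamp gene Pcna at 273, 368, 263 and 487 CPM against 76.2, 98.1, 91.6 and 116 CPM. Pcna was thus abundant in other cells as well, while Ccna2 was close to absent from the other cells of the tetramer-negative libraries.

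The promoters of the 4 marker genes were inspected for the elements named above, since these genes were raised together. The 250 bases before each gene's start are printed 5′ to 3′ on the strand of the gene, from RefSeq on GRCm38.p6, with every CHR (TTTGAA or TTCGAA, or TTCAAA where TTTGAA lies on the other strand) and every CCAAT box (CCAAT, or ATTGG on the other strand) in capitals. The windows are chr7:135716380-135716629 (minus strand) for Mki67, chr11:99024190-99024439 (minus strand) for Top2a, chr2:164769679-164769928 (plus strand) for Ube2c and chr9:70421555-70421804 (minus strand) for Ccnb2.
Mki67: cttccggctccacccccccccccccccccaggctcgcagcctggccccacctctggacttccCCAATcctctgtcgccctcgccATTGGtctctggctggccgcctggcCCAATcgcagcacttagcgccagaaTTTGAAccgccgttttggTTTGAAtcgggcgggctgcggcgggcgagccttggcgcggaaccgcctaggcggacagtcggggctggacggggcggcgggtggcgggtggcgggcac
Top2a: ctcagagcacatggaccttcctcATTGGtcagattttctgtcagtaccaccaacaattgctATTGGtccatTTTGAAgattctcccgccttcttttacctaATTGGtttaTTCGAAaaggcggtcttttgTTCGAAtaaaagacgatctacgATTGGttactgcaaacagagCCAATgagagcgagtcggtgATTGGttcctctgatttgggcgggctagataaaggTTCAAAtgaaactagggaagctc
Ube2c: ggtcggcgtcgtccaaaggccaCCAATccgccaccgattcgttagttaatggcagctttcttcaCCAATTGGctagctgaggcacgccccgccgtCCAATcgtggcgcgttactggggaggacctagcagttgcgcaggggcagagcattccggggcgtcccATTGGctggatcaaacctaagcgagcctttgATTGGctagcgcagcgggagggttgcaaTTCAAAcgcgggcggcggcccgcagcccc
Ccnb2: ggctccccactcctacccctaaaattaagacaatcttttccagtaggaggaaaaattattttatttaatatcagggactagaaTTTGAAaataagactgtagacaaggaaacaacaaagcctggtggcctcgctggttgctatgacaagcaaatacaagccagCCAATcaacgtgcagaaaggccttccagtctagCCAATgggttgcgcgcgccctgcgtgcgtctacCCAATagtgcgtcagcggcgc
All 4 windows held at least 1 CHR and at least 3 CCAAT boxes. Mki67 had 2 CHR and 3 CCAAT matches, Top2a 4 and 6, Ube2c 1 and 6 with 2 CCAAT matches that overlap, and Ccnb2 1 and 3. None held the E2F motif GGCGGGAA on either strand. Of all 32851 promoters of this length in the table, 17.1% held a CHR, 33.8% a CCAAT box, 6.02% both, 2.79% at least 3 CCAAT boxes and 1.86% the E2F motif. Of the G2/M list, 53 of 63 genes had a promoter in the table, and 37.7% held a CHR, 77.4% a CCAAT box, 34.0% both and 0 the E2F motif. Of the S phase list, 37 of 52 genes were matched, and 16.2% held a CHR, 64.9% a CCAAT box and 10.8% the E2F motif. The matches are letters in a window and were not tested as sites of binding.

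Regulators of the cell cycle outside the 2 phase lists were compared by edgeR's quasi-likelihood test on counts summed per library and state, with the library as a block, and p-values were adjusted over all genes by Benjamini-Hochberg. Of 9619 genes tested, 22.2% were higher and 21.4% lower in members at an adjusted p under 0.05, which is the background for the counts of each list. Many genes of the cell-cycle, nucleotide synthesis and DNA damage lists are transcribed in dividing cells, which the rule selects. Their rise therefore describes the selection, and their counts and p-values are no independent support. Of 12 cyclin, CDK and CDK inhibitor genes outside the phase lists, 9 rose and 2 fell. Inhibitors went both ways. Cdkn1a, which encodes p21, stood at 100.5, 135, 86.8 and 158 CPM in members and 32.9, 42.2, 40.2 and 57.7 CPM in other cells (log2 difference 1.5 ± 0.10, SE, adjusted p = 2.31e-08), with members above other cells in each library. Cdkn2a, the locus of p16 and Arf, stood at 33.4, 32.3, 24.95 and 49.3 CPM against 3.97, 4.32, 6.97 and 4.94 CPM (log2 difference 2.85 ± 0.21, adjusted p = 9.9e-08), and Cdkn2c, which encodes p18, rose by 2.19 (adjusted p = 7.09e-07). Cdkn1b, which encodes p27, the inhibitor of resting T cells, was lower, at 66.7, 92.2, 70.9 and 78.3 CPM against 125, 155, 111 and 151 CPM (log2 difference -0.82 ± 0.09, adjusted p = 6.46e-06). The kinase gene of G1, Cdk4, rose by 1.12 (adjusted p = 1.2e-07), the cyclin D2 gene Ccnd2 fell (log2 difference -0.39, adjusted p = 0.00406), and the cyclin D3 gene Ccnd3 had a log2 difference of 0.08 (adjusted p = 0.46).

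Of 19 E2F, MuvB and FoxM1 regulators outside the phase lists, 15 rose and 1 fell. Foxm1, the activator of mitotic genes, stood at 34.2, 37.2, 18.0 and 37.7 CPM in members and 0.862, 1.48, 0.820 and 0.823 CPM in other cells (log2 difference 4.94 ± 0.24, adjusted p = 1.85e-09). The B-Myb gene Mybl2 stood at 71.6, 70.1, 46.9 and 66.7 CPM against 2.43, 1.99, 7.58 and 3.43 CPM (log2 difference 4.45 ± 0.28, adjusted p = 1.79e-08), and both were nearly absent outside the members. The activator E2f1 rose from 5.21, 6.42, 9.43 and 7.82 CPM to 60.6, 71.7, 49.9 and 87.0 CPM (log2 difference 3.31 ± 0.16, adjusted p = 1.83e-09) and the late repressor E2f7 by 4.81 (adjusted p = 1.79e-08). The gene that fell was E2f5, which encodes an E2F of resting cells, at 5.70, 5.93, 3.99 and 7.25 CPM against 15.7, 18.3, 10.9 and 11.9 CPM (log2 difference -1.43 ± 0.23, adjusted p = 0.000205). Of the pocket protein genes, Rbl1 (p107) rose by 1.82 (adjusted p = 2.93e-07), while Rbl2 (p130) had a log2 difference of -0.07 (adjusted p = 0.621). The MuvB subunit gene Lin54 had a log2 difference of 0.00 (adjusted p = 0.996).

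Of 20 spindle checkpoint and APC/C genes outside the phase lists, 13 rose and 0 fell. Fbxo5, which encodes the APC/C inhibitor Emi1, stood at 76.1, 91.1, 109 and 117 CPM in members and 2.02, 1.76, 4.92 and 2.33 CPM in other cells (log2 difference 5.31 ± 0.17, adjusted p = 1.57e-10). The checkpoint gene Mad2l1 stood at 58.6, 70.6, 52.9 and 76.9 CPM against 9.63, 10.2, 10.7 and 14.7 CPM (log2 difference 2.57 ± 0.12, adjusted p = 1.41e-09). Ube2s, the second ubiquitin-conjugating enzyme of the APC/C, was already abundant in other cells, with 190.4, 453, 206 and 391 CPM, and reached 442, 821, 378 and 708 CPM in members (log2 difference 0.96 ± 0.08, adjusted p = 5.16e-07). Of 26 genes of nucleotide synthesis outside the phase lists, 19 rose and 2 (Rrm2b and Ctps2) fell. Among the former, Mthfd2 of mitochondrial folate metabolism stood at 119.6, 102, 136 and 132 CPM against 41.0, 46.8, 56.0 and 42.2 CPM (log2 difference 1.38 ± 0.10, adjusted p = 1.02e-07), and the purine enzyme gene Paics rose by 1.03 (adjusted p = 5.27e-07). With other cells matched for depth, 9 of 25 nucleotide synthesis genes outside the phase lists rose and 1 fell. Over all genes 15.4% rose and 12.4% fell there. Of 20 genes of the DNA damage response outside the phase lists, 11 rose and 4 fell, which were the stress genes Gadd45a, Gadd45b and Gadd45g and the p53 target Sesn1. H2afx, the histone variant that marks DNA breaks, stood at 577, 431, 679.8 and 448 CPM against 77.9, 91.6, 104 and 83.4 CPM (log2 difference 2.57 ± 0.11, adjusted p = 6.92e-10), and the repair gene Brca1 rose by 3.39 (adjusted p = 2.07e-08). Trp53 and its target Mdm2 had log2 differences of 0.05 (adjusted p = 0.769) and 0.04 (adjusted p = 0.787), and these differences did not pass the threshold.

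Dividing cells were about 2 times as frequent among tetramer-positive as among tetramer-negative islet cells of the same round. They were 254 of 6429 cells (3.95%, exact Clopper-Pearson 95% confidence interval 3.49–4.46) in tetramer-negative Round 1 and 210 of 8932 cells (2.35%, 2.05–2.69) in Round 2. In the tetramer-positive libraries they were 101 of 1204 cells (8.39%, 6.88–10.1) and 78 of 1598 cells (4.88%, 3.88–6.05). The sorts did not overlap, and the ratio of tetramer-positive to tetramer-negative was 2.12 in Round 1 and 2.08 in Round 2. Each sort had a higher share in Round 1. The means were 6.63% ± 2.48 (SD, n = 2 libraries) and 3.15% ± 1.13 (SD, n = 2 libraries), and the difference of 3.48 percentage points had a p of 0.333 by a two-sided exact permutation test, the smallest p that 2 libraries against 2 allow. The intervals cover counting error only. In the spleen, tetramer-positive cells met the rule in 1 of 3524 cells (0.0284%) and 10 of 2430 cells (0.412%), under an upper limit of 2000 genes, which is below the median number of genes of the islet members. With the islet limit of 3500 genes they were 14 of 3619 cells (0.387%) and 17 of 2591 cells (0.656%), so the spleen shares depended on this limit, most of all in Round 1.

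The share rose with the depth that cells were allowed to have, and the order of the sorts within a round stayed. Without an upper limit on genes the shares were 6.46%, 5.13%, 11.5% and 9.41% (ratios 1.78 and 1.83). With at least 2 UMIs of each gene they were 2.61%, 1.38%, 4.49% and 3.004%, and after each cell was thinned to 2000 UMIs 1.61%, 0.810%, 2.41% and 1.89% (ratios 1.496 and 2.33). When the limit on genes was removed and each cell thinned, the difference of the means was 1.11 percentage points and the ratios were 1.31 and 1.91, so that in Round 1 the ratio fell from 2.12 to 1.31. These alternatives therefore gave different levels, but the tetramer-positive library was the higher of its round in each of them.

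The sorts came close to each other once only expanded clones were counted, an alternative chosen after seeing the data. Among cells with exactly 1 productive α and 1 productive β chain, members were 5.21%, 2.72%, 11.1% and 5.46% (ratios 2.14 and 2.01). Among those of them whose clone, defined by the paired CDR3 nucleotide sequences, had at least 2 cells in the library, members were 8.61%, 5.39%, 11.2% and 5.52%. The ratio of tetramer-positive to tetramer-negative was then 1.30 in Round 1 and 1.02 in Round 2, and the difference of the means was 1.36 percentage points (p = 0.667, exact permutation test, n = 2 libraries per sort). The difference between rounds was then larger than that between sorts.

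**Figure D3:**
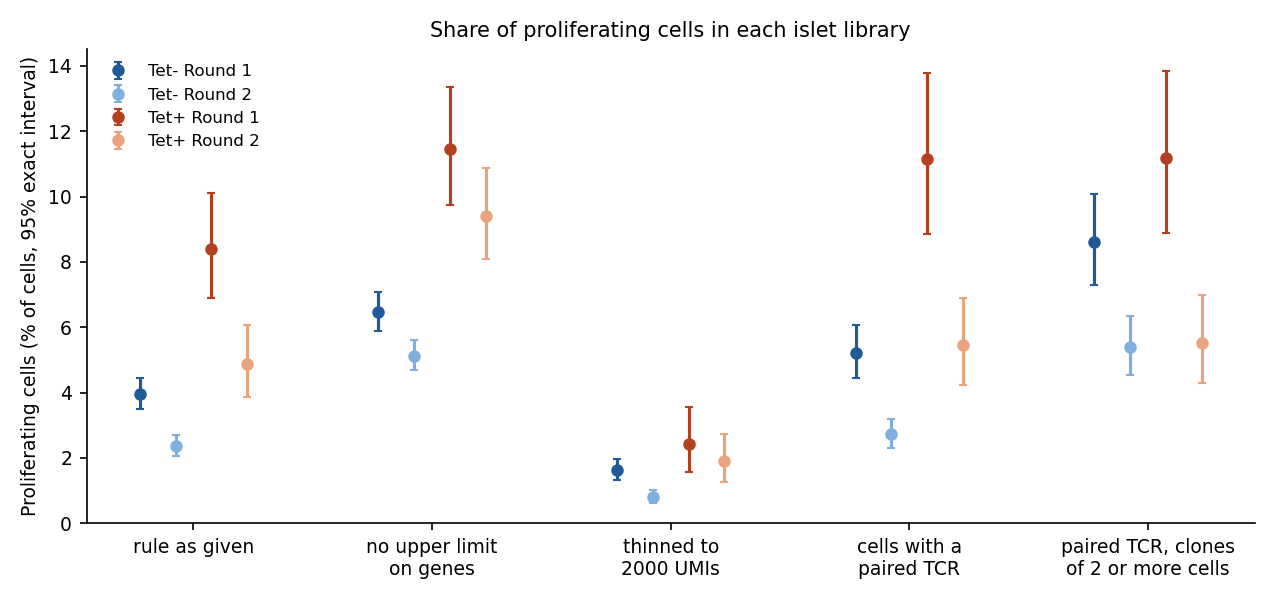
Percent of cells that were members (y axis) in each islet library under 4 ways to choose the cells counted (x axis), with exact 95% intervals for counting error. Tetramer-positive libraries lie above the tetramer-negative library of their round where all cells are counted (8.39% and 4.88% against 3.95% and 2.35%), and the sorts come close within clones of at least 2 cells (11.2% and 5.52% against 8.61% and 5.39%).

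Members sat in expanded clones more often than other cells of their library, and most plainly so in the tetramer-negative libraries. A clone of at least 2 cells held 138 of 156 paired members (88.5%) against 51.7% of other cells in tetramer-negative Round 1, and 136 of 149 (91.3%) against 44.8% in Round 2. In the tetramer-positive libraries nearly all cells were in such clones, with 74 of 75 members (98.7%) against 98.2%, and 65 of 65 (100%) against 98.8%. The mean difference was 21.3 percentage points ± 23.9 (SD, n = 4 libraries), higher in 4 of 4 libraries, with p = 0.125 by a two-sided exact permutation test of sign flips, the smallest p it allows. When clone size was counted over the other cells only, so that 2 sister members could not make a clone expanded by themselves, the difference was 19.1 percentage points and again positive in 4 of 4 libraries. When cells with further chains were also used, with the chain of the highest UMI count, it was 20.3 and positive in 2 of 4, both of them tetramer-negative.

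Among tetramer-negative cells the share of members was lowest in singlet clones and highest in the largest clones. Singlet clones held 1.30% and 0.439% members in Rounds 1 and 2, clones of 2 to 4 cells 8.35% and 3.47%, clones of 5 to 19 cells 7.85% and 4.06%, and clones of at least 20 cells 9.38% and 7.97%. In Round 1 most of the rise lay between singlets and clones of 2 to 4 cells, whereas Round 2 had a second rise at clones of at least 20 cells. Median UMI counts moved in the same direction, from 3811 and 3731 in cells of singlet clones to 4859.5 and 4929 in those of clones of at least 20 cells, and the part of depth in the share by clone size was not tested. In tetramer-positive cells only 12 and 14 singlet cells were available, of which 1 and 0 were members, and clones of at least 20 cells held 12.1% and 5.97% members.

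**Figure D4:**
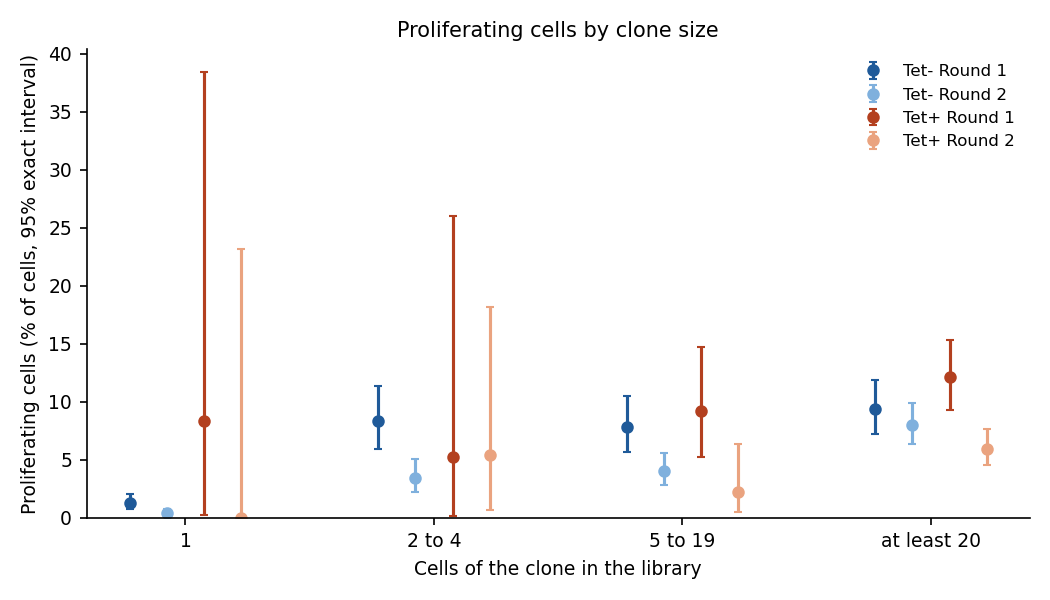
Percent of paired cells that were members (y axis, exact 95% intervals for counting error) by the number of cells of the clone in the library (x axis), for the 4 islet libraries. In the tetramer-negative libraries the share goes from 1.30% and 0.439% in singlets to 9.38% and 7.97% in clones of at least 20 cells, and the tetramer-positive intervals for small clones are wide.

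Division was spread over many clones. Paired members came from 85, 77, 16 and 18 clones, of which 24, 25, 11 and 10 held at least 2 members. Of the clones with at least 20 cells, 9 of 11, 20 of 25, 6 of 6 and 14 of 16 held a member. The 5 clones with the most members held 34.0%, 29.5%, 73.3% and 67.7% of the paired members and 15.9%, 5.94%, 62.0% and 51.2% of the other paired cells, where the choice of these clones by their members raises the first value. Among paired members, 35 of 156, 24 of 149, 72 of 75 and 63 of 65 had a clone that was also found among the tetramer-positive spleen cells of the same round. In the tetramer-negative libraries these counts rest on few spleen cells. In Round 1, 29 of the 35 members belonged to a single clone matched by 1 spleen cell, and in Round 2 most of the 24 belonged to clones of 12 and 11 members, matched by 3 and 5 spleen cells. The spleen held only sorted tetramer-positive cells, so that clones of tetramer-negative cells had less chance to be found there.

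The receptors of the clones with the most members are printed as CDR3 nucleotide sequences, 5′ to 3′, to show which T cells divided. In the tetramer-negative libraries the leading clones paired an α chain of TRAV6N-7 and TRAJ18 with a β chain of TRBV16 and TRBJ2-2 in Round 1 (29 members of 232 cells, 12.5%) and TRAV12D-2 and TRAJ23 with TRBV5 and TRBJ2-1 in Round 2 (12 of 59 cells, 20.3%). Among the 3 clones with the most members of each tetramer-positive library, 4 shared TRAV16N with TRAJ42 and TRBV13-3, and 3 of them are printed. In Round 1 they used TRBJ2-4 and held 18 members of 90 cells (20%, clone 1) and 14 of 116 cells (12.1%, clone 2), and in Round 2 the leading clone used TRBJ2-2 and held 18 members of 193 cells (9.33%, clone 3). The clone that is not printed used TRBJ2-4 and held 9 members of 205 cells (4.39%) in Round 2. Capitals mark the bases that differ from clone 1, counted from 1 at the 5′ end of the CDR3.
Tetramer-negative Round 1, α: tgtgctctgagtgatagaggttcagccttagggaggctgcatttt
Tetramer-negative Round 1, β: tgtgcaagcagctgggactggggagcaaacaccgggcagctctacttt
Tetramer-negative Round 2, α: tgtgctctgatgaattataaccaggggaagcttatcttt
Tetramer-negative Round 2, β: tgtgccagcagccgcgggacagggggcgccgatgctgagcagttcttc
Clone 1, α: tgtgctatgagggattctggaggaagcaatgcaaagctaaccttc
Clone 1, β: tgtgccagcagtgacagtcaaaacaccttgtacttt
Clone 2, α: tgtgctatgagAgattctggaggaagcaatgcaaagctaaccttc
Clone 2, β: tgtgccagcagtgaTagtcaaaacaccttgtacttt
Clone 3, α: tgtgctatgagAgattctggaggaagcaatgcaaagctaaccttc
Clone 3, β: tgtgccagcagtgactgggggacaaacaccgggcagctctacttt
Clones 1 and 2 differed by G12A in the α chain and C15T in the β chain. Clone 3 carried the α chain of clone 2, with G12A against clone 1, beside a β chain of another length. Clone 2 also had 31 cells in the tetramer-positive cells of Round 2, 1 of them a member, so the same receptor was found in dividing cells of both pools of mice.

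The segment pair that dominates IGRP-specific cells had similar shares in dividing and in other tetramer-positive cells. TRAV16N with TRAJ42 was used by 86.7% and 98.5% of the paired tetramer-positive members of Rounds 1 and 2, against 85.3% and 98.1% of the other cells. The exact α CDR3 of clone 2 was carried by 19 of 75 members (25.3%) in Round 1 and 55 of 65 (84.6%) in Round 2. In the Round 2 members it was paired with 12 different β chains. Among other tetramer-positive cells it was carried by 175 of 598 (29.3%) and 817 of 1126 (72.6%), so the rounds went opposite ways. Among tetramer-negative members the segment pair was used by 0% and 2.01%, against 0.458% and 0.319% of the other cells, which are shares of a few cells.

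Nearly all genes of quiescence and memory fell in members. Of 25 genes tested, 24 fell and 1, the T-cell surface receptor gene Cd7, rose (median log2 difference -1.21, background 21.4% lower). The lymph node homing receptor gene Ccr7 stood at 50.9, 131, 22.0 and 53.7 CPM in members and 505, 982, 180.0 and 340.1 CPM in other cells (log2 difference -3.03 ± 0.12, adjusted p = 3.68e-10), and members were lower in each library. The IL-7 receptor gene Il7r stood at 24.4, 25.9, 2.99 and 1.45 CPM against 202, 199.8, 11.3 and 20.7 CPM (log2 difference -3.02 ± 0.14, adjusted p = 1.26e-09). Tcf7, which encodes the memory factor TCF1, stood at 81.8, 69.0, 38.9 and 20.3 CPM against 152, 172, 76.5 and 102 CPM (log2 difference -1.22 ± 0.14, adjusted p = 8.24e-06). Bach2, a repressor of effector differentiation, fell by 2.05 on the log2 scale (adjusted p = 1.39e-07) and the Foxo1 target Txnip by 1.43 (adjusted p = 9.16e-07). With other cells drawn to the UMI depths of the members, where 12.4% of 8119 genes were lower, 18 of 25 genes of this list were lower and again only Cd7 was higher (15.4% of all genes were).

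In the tetramer-negative libraries, 51.7% and 44.8% of other paired cells but 88.5% and 91.3% of members were in clones of at least 2 cells, so the groups compared also differed in clonal expansion. Members were therefore also compared with the other cells of the very clones that held a member (129, 131, 74 and 65 members and 825, 971, 496 and 927 other cells, chosen after seeing the data), where 20.5% of 8555 genes were higher and 18.3% lower. Of 23 quiescence genes tested, 19 were lower and 0 higher, with a median of -0.66. Ccr7 remained lower in the members of each library, at 21.5, 68.8, 23.5 and 45.1 CPM against 102, 192, 141 and 299.9 CPM in their clone-mates (log2 difference -2.05 ± 0.14, adjusted p = 2.1e-11). Tcf7 was lower by a similar amount as before (log2 difference -1.03 ± 0.16, adjusted p = 1.2e-05), and Il7r by less (log2 difference -1.06 ± 0.25, adjusted p = 0.00144).

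Klf2, S1pr1 and Lef1, which encode a factor of naive T cells, the receptor that guides exit from tissues, and a partner of TCF1, behaved in another way. Against all other cells, Klf2 stood at 177, 225, 58.9 and 136 CPM against 468, 602, 51.7 and 151 CPM (log2 difference -0.92 ± 0.22, adjusted p = 0.00371), and the tetramer-positive Round 1 library went against the others. Against clone-mates it stood at 134, 191, 59.97 and 150.4 CPM against 135, 164, 49.2 and 159 CPM (log2 difference 0.14 ± 0.09, adjusted p = 0.223), so members and clone-mates overlapped. S1pr1 went from a log2 difference of -1.94 ± 0.23 (adjusted p = 1.09e-05) against all other cells to 0.13 ± 0.18 (adjusted p = 0.618) against clone-mates, and Lef1 from -2.00 ± 0.31 (adjusted p = 0.000122) to -0.02 ± 0.16 (adjusted p = 0.928). Clone-mates held a median of 4273.5 to 4575 UMIs per library and the members of these clones 8805 to 10334.5, and clones and depth were not matched at the same time.

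Early genes induced through the T-cell receptor (TCR) were lower in members or did not pass the threshold. Of 24 genes tested, 0 rose and 18 fell (median log2 difference -0.69), and 14 fell with other cells matched for depth. Nr4a3, which encodes a nuclear receptor induced by TCR signals, stood at 90.3, 111, 45.9 and 100.1 CPM in members and 205, 257, 130.4 and 265 CPM in other cells (log2 difference -1.30 ± 0.09, adjusted p = 3.75e-08), without overlap. The AP-1 gene Junb was lower by 1.31 on the log2 scale (adjusted p = 3.75e-08) at 643, 776, 516 and 724 CPM against 1579.7, 2184, 1189 and 1731 CPM, and Cd69, the early activation marker that retains cells in tissue, stood at 122, 157, 94.8 and 94.3 CPM against 317, 336, 165 and 186 CPM (log2 difference -1.10 ± 0.11, adjusted p = 1.37e-06). Nr4a1, which encodes Nur77, was at 137, 226, 95.8 and 186 CPM against 153, 209, 138 and 233 CPM, and this difference did not pass the threshold (log2 difference -0.20 ± 0.09, adjusted p = 0.112). Against clone-mates 21 of 23 genes were lower and 0 higher, with Nr4a3 at a log2 difference of -1.45 ± 0.09 (adjusted p = 6.45e-12) and Nr4a1 at -0.31 ± 0.08 (adjusted p = 0.00301).

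Cytotoxic effector genes were called in both directions. Of 25 tested, 4 (Gzmk, Klrg1, Nkg7 and Gzmb) rose and 6 (Xcl1, Ccl4, Ccl5, Prf1, Ctsw and Srgn) fell, with a median log2 difference of -0.04. Over all genes 22.2% rose and 21.4% fell. With other cells matched for depth, 5 of 24 rose and 3 fell (median 0.07), beside 15.4% and 12.4% of all genes. Against clone-mates 4 of 24 rose and 13 fell (median -0.29), beside 20.5% and 18.3% of all genes. Gzmk, which encodes granzyme K, was higher in members of each library, at 393, 507, 422 and 449.7 CPM against 186, 214, 252 and 306 CPM (log2 difference 0.92 ± 0.10, adjusted p = 3.19e-06), and it stayed higher against clone-mates (log2 difference 0.50 ± 0.06, adjusted p = 1.16e-07). After thinning each cell to 2000 UMIs, a Gzmk UMI was found in 50.6, 53.6, 49.0 and 56.4% of members and 21.0, 22.2, 34.5 and 33.5% of other cells. Gzmb, which encodes granzyme B, stood at 234, 306, 172 and 183 CPM against 114, 166, 189 and 227 CPM (log2 difference 0.44 ± 0.17, adjusted p = 0.0464), higher in both tetramer-negative and lower in both tetramer-positive libraries, and did not differ beyond the threshold from clone-mates (log2 difference 0.06 ± 0.08, adjusted p = 0.56). The chemokine gene Xcl1 was lower in each library, at 188, 255, 229 and 174 CPM against 324, 291, 715 and 652 CPM (log2 difference -1.07 ± 0.19, adjusted p = 0.000393). Ccl5, a chemokine gene of effector cells, had a log2 difference of -0.40 (adjusted p = 0.0434) that turned to 0.50 with other cells matched for depth (adjusted p = 6.72e-06) and was -0.78 against clone-mates. The interferon-γ gene Ifng had a log2 difference of -0.13 (adjusted p = 0.414).

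Coinhibitory receptor genes were unequal against all other cells and mostly lower against clone-mates. Of 11 genes tested, 1 rose and 5 fell against all other cells (median log2 difference -0.28), and 0 rose and 8 fell against clone-mates (median -0.56). The gene that rose was Entpd1, which encodes CD39, at 65.5, 89.0, 71.9 and 144 CPM against 26.1, 31.2, 74.0 and 101 CPM (log2 difference 0.90 ± 0.18, adjusted p = 0.000974), with a log2 difference of 0.18 ± 0.10 against clone-mates (adjusted p = 0.182). Pdcd1, which encodes PD-1, stood at 351, 349.9, 381 and 596 CPM against 286, 269, 607 and 729.9 CPM (log2 difference -0.05 ± 0.13, adjusted p = 0.768), higher in both tetramer-negative and lower in both tetramer-positive libraries. Against clone-mates it was lower in each library, at 335, 379.7, 373 and 590.0 CPM against 528, 469.7, 606 and 695 CPM (log2 difference -0.42 ± 0.07, adjusted p = 1.64e-05). Lag3, a further receptor of chronically stimulated cells, had a log2 difference of -0.43 ± 0.14 (adjusted p = 0.023) against all other cells and -0.91 ± 0.07 (adjusted p = 3.04e-10) against clone-mates, and the TIM-3 gene Havcr2 went from 0.02 (adjusted p = 0.948) to -0.75 (adjusted p = 0.000193). With other cells matched for depth, 2 of 10 coinhibitory receptor genes rose and 5 fell (median -0.16), beside 15.4% and 12.4% of all genes.

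Markers of progenitor and effector states were found among the members at equal depth. After thinning to 2000 UMIs, Pdcd1 was found in 40.3, 38.6, 46.0 and 57.7% of members and 27.0, 24.2, 58.1 and 61.9% of other cells. The progenitor-type pair Tcf7 and Pdcd1 was found together in 2.37, 4.35, 2.00 and 2.56% of members and 4.88, 5.18, 6.30 and 9.12% of other cells, and the effector-type pair Havcr2 and Pdcd1 in 1.58, 4.35, 0 and 6.41% and 1.54, 1.82, 5.77 and 8.40%. These shares rest on few cells in the tetramer-positive libraries and are given without a test.

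**Figure D5:**
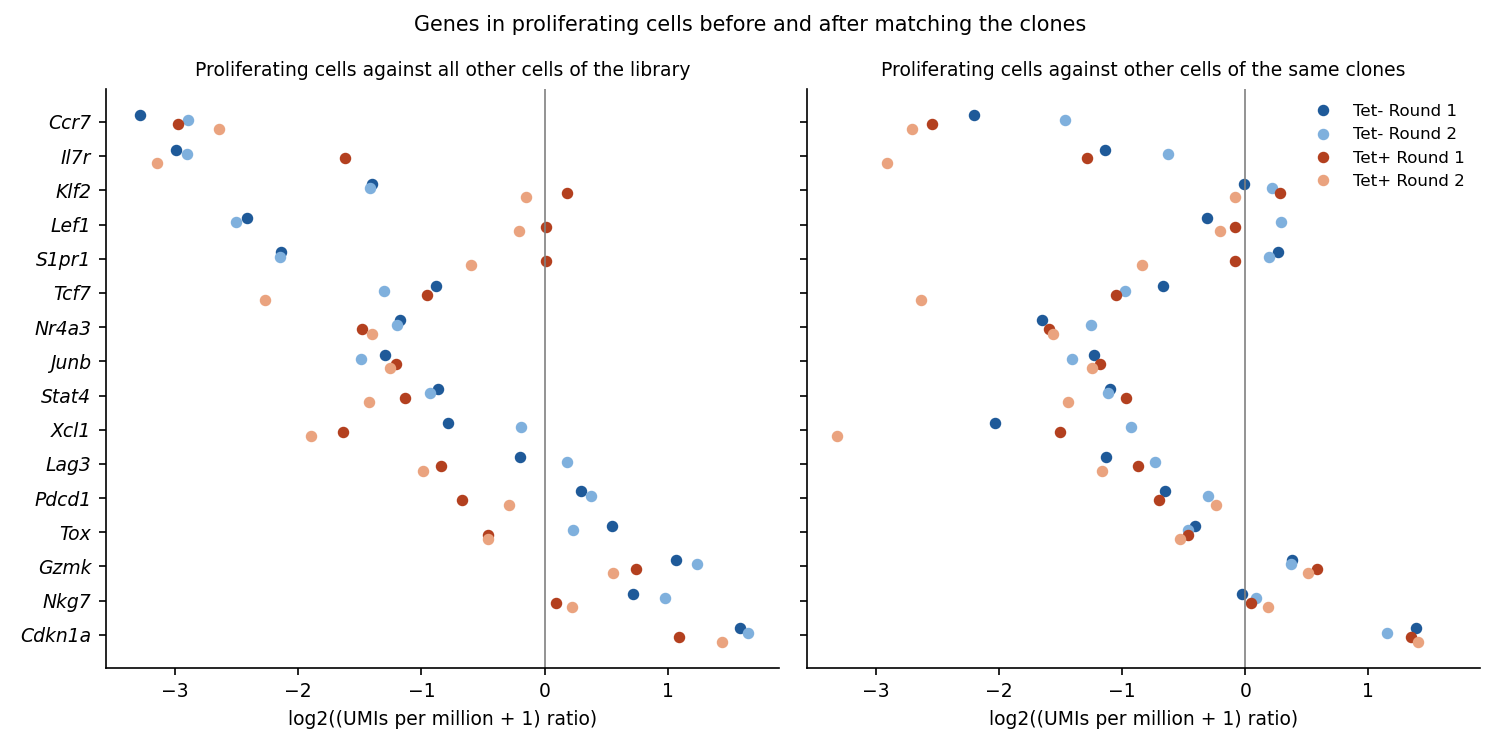
log2 ratio of CPM + 1 of members to other cells (x axis) for named genes (y axis), 1 point per islet library, against all other cells of the library (left) and against the other cells of the clones that held a member (right). Klf2, S1pr1 and Lef1 scatter around 0 on the right, Ccr7, Tcf7 and Nr4a3 stay below 0 in all 4 libraries, and Pdcd1 and Lag3 move to below 0.

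T-cell transcription factor genes were lower more often than higher. Of 28 genes tested, 5 (Prdm1, Eomes, Batf, Runx1 and Id2) rose and 12 fell (median log2 difference -0.27). Against clone-mates 0 of 28 rose and 16 fell (median -0.46), beside 20.5% and 18.3% of all genes. Stat4, which transmits IL-12 signals, stood at 154, 169, 118 and 165 CPM against 280.5, 322, 259 and 447 CPM (log2 difference -1.07 ± 0.09, adjusted p = 4.65e-07), and Zeb2 of terminal effector cells and Hif1a of the hypoxia response fell by 0.59 (adjusted p = 0.0109) and 0.77 (adjusted p = 3.3e-05). Tox, the exhaustion-associated factor gene, had a log2 difference of 0.00 ± 0.13 (adjusted p = 0.999) against all other cells and of -0.42 ± 0.07 against clone-mates (adjusted p = 1.62e-05). Eomes rose by 0.42 against all other cells (adjusted p = 0.00726) and had a log2 difference of -0.03 against clone-mates (adjusted p = 0.827).

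Many cytokine receptor and anergy genes were lower in members, and some glycolysis genes were higher. Of 20 cytokine receptor genes tested, 0 rose and 13 fell (median log2 difference -0.47), among them the common gamma chain gene Il2rg (log2 difference -0.67, adjusted p = 5.22e-05), Il21r (-0.79, adjusted p = 2.8e-06) and Tgfbr2 (-0.96, adjusted p = 4.23e-06). The IL-2 and IL-15 receptor gene Il2rb had a log2 difference of -0.17 (adjusted p = 0.119). Of 11 anergy genes, the ubiquitin ligase gene Nedd4 rose and 8 fell, among them the ubiquitin ligase gene Cblb at 180.2, 199, 137 and 236 CPM against 299, 357, 258 and 380.4 CPM (log2 difference -0.79 ± 0.08, adjusted p = 3.04e-06) and the diacylglycerol kinase gene Dgka (log2 difference -1.11, adjusted p = 2.18e-07). Of 16 glycolysis genes, 6 rose and 0 fell (median log2 difference 0.20), with Tpi1 at a log2 difference of 1.06 (adjusted p = 8.79e-07), and of 15 genes tested with other cells matched for depth 2 (Gapdh and Ldha) rose and 0 fell, which is no larger a share than over all genes there (15.4% higher). Of 21 apoptosis regulators, 7 rose and 6 fell. The survival gene Bcl2 and the death gene Bcl2l11, which encodes Bim, fell by 1.21 (adjusted p = 3.56e-05) and 1.03 (adjusted p = 1.55e-05).

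The genes with the largest rise outside the phase lists, named by rule, were led by Esco2. This gene, which encodes the acetyltransferase that ties sister chromatids together in S phase, stood at 69.2, 63.6, 88.8 and 91.4 CPM in members and 0.487, 0.285, 3.69 and 0.686 CPM in other cells (log2 difference 6.67 ± 0.32, adjusted p = 1.41e-09). Cdca5, which encodes sororin, rose by 5.61 (adjusted p = 1.41e-09), and Knl1 and Ska1 of the kinetochore by 4.79 (adjusted p = 2.38e-09) and 4.68 (adjusted p = 3.37e-09). Pclaf, which encodes a PCNA-binding factor, Ncapg of condensin and Kif22, a chromosome motor gene, rose by 4.71, 4.67 and 4.55 (adjusted p = 1.37e-08, 1.66e-09 and 1.25e-09), and Fbxo5 is given above. The histone genes Hist1h2ab and Hist1h1b rose by 6.09 and 4.79 (adjusted p = 1.93e-10 and 1.74e-09), with Hist1h2ab at 4.88, 163, 6.99 and 115 CPM in members, so that its level moved with the round far more than with the sort. These rising genes belong to cell division and go with Mki67 and Top2a. Their rise therefore describes the selection by the rule, and their p-values are no independent support. The largest falls outside Ccr7, Il7r and Bach2 were those of Tcp11l2, at 13.8, 27.0, 6.99 and 21.8 CPM against 90.4, 185, 53.3 and 161 CPM (log2 difference -2.81 ± 0.11, adjusted p = 5.76e-10, and -2.86 against clone-mates), and of Rflnb, Neurl3, the urokinase receptor gene Plaur, Klf3, Thada and Slfn1, with log2 differences from -2.62 to -1.87. Slfn1 and Klf3 are known from quiescent lymphocytes.

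Few genes passed the threshold between tetramer-positive and tetramer-negative members. Of 8195 genes, edgeR without a term for the round called 1 at an adjusted p under 0.05 (0.0122%), and 319 had an unadjusted p under 0.05. The gene was Trbv13-3, the β-chain segment of most IGRP-specific receptors, at 43.9, 39.9, 830.5 and 1178 CPM (log2 difference 4.63, adjusted p = 0.00848), and 0 genes were lower. DESeq2 called 8 genes (0.0976%), 6 of them TCR segments, with Gzma and Gm26917 beside them. With the round as a block, which pairs the libraries of each pool of mice, 126 genes were called (1.54%), 34 higher and 92 lower in tetramer-positive members.

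In the fit with the round as a block, 9 of 24 quiescence genes were lower in tetramer-positive than in tetramer-negative members and 0 were higher (median log2 difference -0.64, background 1.12% lower). Il7r, at 24.4, 25.9, 2.99 and 1.45 CPM, was lower by 3.28 on the log2 scale (adjusted p = 0.000522). An Il7r UMI was found in only 1.98% of 101 tetramer-positive members in Round 1 and 1.28% of 78 in Round 2. The size of the Il7r difference thus rests on very few UMIs and is imprecise. Tcf7, at 81.8, 69.0, 38.9 and 20.3 CPM, was lower by 1.23 (adjusted p = 0.0047). For Il7r and Tcf7 alike, every tetramer-negative value exceeded every tetramer-positive value. Klf2, S1pr1 and Ccr7 were lower by 1.05 (adjusted p = 0.000868), 1.39 (adjusted p = 0.0226) and 1.19 (adjusted p = 0.00255). Gzma, which encodes granzyme A, stood at 318, 265, 21.0 and 69.6 CPM and was lower by 2.74 with the block (adjusted p = 8.74e-08), with an adjusted p of 0.36 without it. Ly6a (Sca-1), at 305, 637, 118 and 283 CPM, and the arginine synthesis gene Ass1, at 68.8, 82.5, 27.9 and 24.7 CPM, were lower by 1.19 (adjusted p = 9.66e-06) and 1.41 (adjusted p = 0.0013).

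Higher in tetramer-positive members with the block were the inhibitory NKG2A gene Klrc1, at 339, 419, 453 and 904 CPM (log2 difference 0.84 ± 0.15, adjusted p = 0.00155), and the Helios gene Ikzf2, at 120.0, 73.3, 162 and 142 CPM (log2 difference 0.73 ± 0.16, adjusted p = 0.0151). Ubash3b, which encodes the TCR signal inhibitor Sts-1, stood at 37.0, 36.7, 73.9 and 62.4 CPM (log2 difference 0.98 ± 0.22, adjusted p = 0.0188), and Tcrg-C4, a γ-chain constant segment, at 68.4, 32.3, 125 and 62.4 CPM (log2 difference 0.98 ± 0.19, adjusted p = 0.0047). The genes with the largest rise by rule also held Hist1h4h, Hist1h2ad, Gm3839, Alad and Ier3, with log2 differences from 1.17 to 0.82. Of 15 glycolysis genes, 3 (Gapdh, Eno1 and Tpi1, named after their values were seen) were higher and 0 lower. Pdcd1, at 351, 349.9, 381 and 596 CPM, had a log2 difference of 0.52 ± 0.15 with an adjusted p of 0.0827, and no gene of the cyclin list was called.

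The contrast between sorts was not the same in members and in other cells. The interaction of state and sort, fitted with the library as a block, was called for 325 of 10184 genes (3.19%), 93 of them with a log2 contrast that was higher (0.913%) and 232 with one that was lower (2.28%) in members. On the higher side, Lef1 stood at 48.8, 39.4, 28.9 and 23.2 CPM in members and 265, 229, 28.7 and 26.9 CPM in other cells (difference of log2 contrasts 2.49 ± 0.27, adjusted p = 1.57e-05), so the other cells of the sorts differed far more than the members did. S1pr1 and Klf2 had the same form, with 2.02 (adjusted p = 0.00217) and 1.48 (adjusted p = 1.57e-05). On the lower side, Pdcd1 had a difference of -0.73 (adjusted p = 0.00111) and Gzmb of -1.10 (adjusted p = 2.34e-05). Genes of the phase lists are not named here, since the rule sets their level in members of both sorts. The 325 calls and their shares still include them. Of 52 S phase genes 11 had a lower contrast and 0 a higher one, and of 61 G2/M genes 17 had a lower and 1 a higher one. In other lists, 10 cytotoxic and 5 coinhibitory receptor genes had a lower contrast in members, against 0 and 0 with a higher one, and of 26 quiescence genes 5 (Lef1, S1pr1, Klf2, Foxp1 and Satb1) had a higher contrast and 1 (Cd7) a lower one.

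The number of such genes changed with the other cells that were compared. With other cells that had neither Mki67 nor Top2a, 414 of 9896 genes were called (4.18%). With other cells matched for depth, 9 of 8796 genes were called (0.102%), 8 of which were also among the 325. When cells of both states were taken only from clones of at least 2 cells, 2 of 9378 genes were called (0.0213%), Hspa1a and Trav4-3, named after their values were seen, while 507 had an unadjusted p under 0.05. There the difference of log2 contrasts was 0.13 for Lef1, 0.33 for Klf2, 0.21 for S1pr1 and -0.07 for Pdcd1. These alternatives were chosen after seeing the data, and each of them uses fewer cells than the comparison with all other cells.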

How the data were processed

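For each of the 6 sorts, the authors deposited unnormalised UMI counts for every gene of every cell, which Cell Ranger made against mm10 from 10x 5′ libraries (version 6.0 is named in the study's methods and 5.0.1 in the matrix headers), and assembled TCR contigs with their V and J genes, CDR3 sequences, and read and UMI counts. Replicates were not pooled, and each library came from a pool of mice. Cells with less than 5% mitochondrial UMIs and 200 to 3500 genes (2000 in spleen) were kept, with the limits of the study, and the cells with at least 1 UMI of Mki67 and of Top2a were taken as members. The kept islet libraries held between 1204 and 8932 cells, and members summed to between 689403 and 2457853 UMIs per library, so low genes are measured least precisely in the tetramer-positive members. Doublets, free RNA and the cluster of exocrine cells that the study left out were not removed.

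Counts were summed per library and state and compared in R 4.3.3 with edgeR 4.0.16 and limma 3.58.1 (TMM, filterByExpr, quasi-likelihood F-tests, Benjamini-Hochberg adjustment over all genes tested, threshold 0.05), with the library as a block for members against other cells and for the interaction of state and sort, and without a block between sorts. The round pairs the libraries, since both sorts of a round came from the same pool of mice. The Round 1 minus Round 2 differences of tetramer-negative and tetramer-positive members correlated across 5540 genes (Pearson r = 0.724), so the fit with the round as a block is printed beside the main one. Shares were compared over libraries by exact permutation tests in Python 3.11.15 with NumPy 2.4.6, pandas 2.3.3 and SciPy 1.17.1, and figures were drawn with matplotlib 3.10.9. For shares of cells with a UMI, each cell was thinned to 2000 UMIs (seed 1), and shallower cells were left out. Clones were defined by the paired CDR3 nucleotide sequences of cells with exactly 1 productive α and 1 productive β chain. The scripts were tested on simulated counts. Alternatives were DESeq2 1.42.0, DESeq2's size factors, no filter on low counts, other limits on cells, cells matched for depth, and each library left out, and those with clones, with cells over the upper limit and on the interaction were added after seeing the data.

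The members, the gene lists and the tests were chosen with earlier results of these data known. Named genes were the markers, the list members with the highest mean CPM or a described role, and the genes with the largest changes past the threshold (10 in each direction for members against other cells and 8 for the other comparisons), with at least 50 CPM in the higher group. Promoters came from a RefSeq table of GRCm38.p6 and were matched by symbol. Values of some members of these lists are not reported here.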

Additional observations from a re-analysis of the deposited data

Results flagged for a closer look

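The contrast between sorts differed between members and other cells for 325 genes by the interaction of state and sort (edgeR), and for 9 with other cells matched for depth and 2 in clones of at least 2 cells. The genes with the largest differences, named by rule, were Lef1 (2.49 on the log2 scale), S1pr1 (2.02), Klhdc2 (1.69), Gm20186 (1.63), Plaur (1.61), Rflnb (1.59), Kif23 (1.56) and Fam241a (1.53), with a higher contrast in members. In clones of at least 2 cells the values were 0.13 for Lef1, 0.21 for S1pr1, -0.057 for Klhdc2 and -0.074 for Plaur. With a lower contrast they were Ccnb2 (-2.00), Nrn1 (-1.85), Kif15 (-1.81), Ccna2 (-1.80), Birc5 (-1.77), Cdca3 (-1.74), Penk (-1.72) and Pclaf (-1.69). Kif23, Ccnb2, Kif15, Ccna2, Birc5, Cdca3 and Pclaf are genes of cell division, whose levels in members the rule that chose them sets, and their values are a description and no test. Penk, the proenkephalin gene, stood at 68.4, 110.0, 32.9 and 97.2 CPM in members and 72.1, 64.0, 163 and 166 CPM in other cells, so that the sorts differed mainly in the other cells.

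Outside the cells compared, 580 islet cells over the upper limit on genes met the rule. In the spleen of Round 2, 10 cells met it, against 1 in Round 1, above the 3 counts taken as the floor. These counts hold under the limit of 2000 genes, and with 3500 genes they were 17 in Round 2 and 14 in Round 1.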

How the results depend on the processing

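For members against other cells, 4193 genes were called (2137 higher, 2056 lower). With other cells matched for depth 2259 were (1253 higher, 1006 lower) and without the library block 1538 (1000 higher, 538 lower), and each library left out in turn gave 2839 to 4247. Of the values of named genes under these alternatives, 3342 kept direction and side of the threshold, 330 kept the direction only, 12 newly passed the threshold and 20 turned. Those that turned were, on the log2 scale, Shmt2 (-0.11), Nme2 (-0.24), Ets1 (0.016), Ccl5 (0.50) and Ifngr1 (0.084) with depth matched. Against clone-mates they were Klf2 (0.14), S1pr1 (0.13), Ccl3 (-0.50), Klrc1 (-0.14), Havcr2 (-0.75), Eomes (-0.027) and Id2 (-0.069), and in clones of at least 2 cells Havcr2 (-0.39). With the cells over the upper limit in place of the members they were Cd7 (-0.042), Klrc1 (-0.39), Myc (0.19), Cd83 (0.63), Id2 (-0.16), Runx1 (-0.066) and Bbc3 (-0.059). Where cells were chosen by depth or clone, fewer cells were summed, and the cause of each turn was not tested.

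Between sorts, the 1 call of the fit without a block became 8 with DESeq2, 71 without the filter on low counts, 2 without cells with 2 β chains (Trbv14 beside Trbv13-3), 0 without an upper limit on genes, 0 in the cells over it (416 and 372 genes had an unadjusted p under 0.05) and 126 with the replicate block on the round. Leaving out a library gave 2 to 53 calls (45 and 53 without tetramer-negative Round 1 and Round 2, 7 and 2 without tetramer-positive Round 1 and Round 2), where the lone library of a sort is assumed to vary like the other sort. The block changed no other comparison, since members and other cells were already paired within the library. The 325 genes of the interaction became 172 with DESeq2, 551 without an upper limit, 9 with depth matched, 2 in clones of at least 2 cells, and 244 to 377 with a library left out. In those clones Klhdc2 (-0.057) and Plaur (-0.074) turned.

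The difference in the share of members between sorts lay between 0.940 and 4.64 percentage points under all alternatives and between 1.73 and 5.24 with a library left out, and that in the share of expanded clones between 12.9 and 28.2. Without thinning, the differences in shares of cells with a UMI between members and other cells were 6.36 percentage points for Gzma (2.65 at equal depth), 42.1 for Gzmk (24.6), 21.8 for Pdcd1 (2.86), 21.6 for Lag3 (-2.26) and 0.669 for Cd69 (-10.98), which the higher depth of members moves.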

Other observations

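The cells over the upper limit on genes that met the rule, an alternative chosen after seeing the data, carried the same leading transcripts at other levels. Ube2c stood at 349, 188, 377 and 217 CPM and Ccna2 at 246, 227, 208 and 233 CPM in them, beside 478, 266, 542 and 335 and 275, 224, 264 and 238 CPM in members within the limit. Ccr7 stood at 100.3, 174, 82.1 and 47.0 CPM and Il7r at 22.2, 20.2, 5.78 and 6.19 CPM, and Gzmk at 290.5, 429, 274 and 426 CPM. Against the other cells of the library, Ccr7 had a log2 difference of -2.32 ± 0.20 (SE), Tcf7 of -0.73 ± 0.14 and Gzmk of 0.56 ± 0.11, and Pdcd1, at 249, 299.5, 428 and 409 CPM, of -0.36 ± 0.12 (edgeR adjusted p = 3.84e-06, 0.00108, 0.00138 and 0.0223).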
